A study of Mus musculus with 64 samples.

Results

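The 10 genes described here are Atf4, Ddit3, Atf3, Trib3, Chac1, Asns, Sesn2, Xbp1, Hspa5 and Herpud1, which belong to the unfolded protein response and the integrated stress response. They were chosen by name, by matching the Ensembl identifiers of the expression table to gene symbols in GENCODE vM21, and 10 of 10 were found among 18432 genes. The study followed mice that carry 1 edited copy of Cyfip2 (Cyfip2 +/R87C, an arginine to cysteine change made in the mouse gene and labelled knock-in, KI) from early life into adulthood, to describe gene expression as seizures evolve. Stranded RNA-seq libraries of mRNA were made from frontal cortex and hippocampus of KI mice and wild-type (WT) littermates of the C57BL/6N strain, collected in postnatal week (PWK) 1, 7, 14 or 28. Each combination of region, age and genotype held 4 libraries from 4 mice, which gave 16 groups and 64 libraries, and p-values measure the spread between these mice. Both regions came from the same mice, so results of the regions are not independent of each other, and each age came from other mice. The change is carried in the germline, so the libraries do not separate an effect in neurons from an effect in other cells.

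The unfolded protein response begins when unfolded proteins collect in the endoplasmic reticulum (ER) and release the chaperone BiP, the product of Hspa5, from its sensors. IRE1 then splices Xbp1 mRNA and ATF6 is cleaved, and both resulting factors raise ER chaperones and degradation factors such as Herpud1, while the kinase PERK phosphorylates eIF2 alpha, lowers general translation and raises translation of ATF4. The same step can be reached through other eIF2 alpha kinases, such as GCN2 when amino acids run short, and this wider integrated stress response acts through ATF4 on Ddit3 (CHOP), Atf3, Trib3, Chac1, Asns and Sesn2. The table counts all RNA of a gene together, so it reports neither the spliced form of Xbp1 nor the translation of Atf4.

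Values are normalized counts, that is, reads assigned to a gene after the authors' scaling for library size and transcript length. The libraries summed to between 29225576 and 32601227 after that scaling, their depth before it is unknown, and no pair of libraries was a copy of another (highest Pearson correlation 0.989). The summed level of 5 cortical marker genes was 10684 to 19731 in cortex and 3411 to 7956 in hippocampus, and that of 5 hippocampal markers was 3746 to 8813 in cortex and 20646 to 29554 in hippocampus. Choroid plexus markers varied widely, from 264 to 125611 in hippocampus, and stood at 21635 in 1 cortical library (WT, PWK 28, replicate 2) against 65.9 to 1131 in the other cortical libraries. The edit changes 1 codon, so the level of Cyfip2 does not check the labels. Its group means were 15206 to 41799 in WT and 15976 to 38346 in KI. In cortex every KI library stood below every WT library at PWK 14 (mean ± SD, 33510 ± 4130 against 41799 ± 1928). The same held at PWK 28 (25727 ± 3577 against 34726.5 ± 608), while at PWK 7 every KI library stood above (38346 ± 694 against 35623 ± 750). Libraries did not overlap for 4.62%, 14.2% and 25.8% of all genes in cortex at PWK 7, 14 and 28. In hippocampus the genotypes overlapped in Cyfip2 at every age. RNA came from whole tissue, where fewer cells of a type and less RNA per cell cannot be told apart.

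The promoters of the 10 genes were searched for response elements known from these pathways, and the matched ones are shown because their genes, Hspa5 and Herpud1, are ER arm genes of which the first was called between KI and WT at PWK 28 and the second was not. All 10 genes matched 1 promoter each in the RefSeq table (GRCm38.p6), which covers 250 bases before and 50 bases after the start site. Of the 5 motifs searched on both strands, only the 2 forms of the ER stress response element, which ATF6 binds, had a match. The ER stress response element, CCAAT, any 9 bases, then CCACG, was found in Hspa5 at bases -65 to -47 from the start site, and in 39 of 32851 mouse promoters in all (0.119%). A related form, ATTGG, any base, then CCACG, was found in Herpud1 at bases -52 to -42, and in 12 of 32851 promoters (0.0365%). The C/EBP-ATF response element (TGATGNAAT) was in 0.965% of all promoters, the UPR element (TGACGTGG) in 0.676% and the cAMP response element (TGACGTCA) in 1.79%. These letters were in none of the 10 windows. Only exact letters were searched, so an element that differs from them by a letter was not counted, and its absence is not shown. The last pair of motifs share their first 6 letters, and both forms of the ER stress response element share CCACG. The bases before the start site of the matched genes, Hspa5 (chr2:34771840-34772089, + strand) and Herpud1 (chr8:94386179-94386428, + strand), are shown with the match in capitals.
Hspa5: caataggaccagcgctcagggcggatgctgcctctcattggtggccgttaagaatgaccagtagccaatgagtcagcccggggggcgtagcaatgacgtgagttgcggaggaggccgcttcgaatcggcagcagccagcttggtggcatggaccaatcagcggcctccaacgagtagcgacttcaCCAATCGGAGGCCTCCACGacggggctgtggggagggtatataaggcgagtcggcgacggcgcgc
Herpud1: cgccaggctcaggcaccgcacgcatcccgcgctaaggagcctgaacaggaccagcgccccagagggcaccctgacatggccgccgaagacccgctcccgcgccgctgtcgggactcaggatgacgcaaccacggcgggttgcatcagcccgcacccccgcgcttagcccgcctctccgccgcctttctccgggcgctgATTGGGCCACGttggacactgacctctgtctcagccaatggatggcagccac

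Levels of different genes were compared per kilobase of exon. In WT tissue Hspa5 was the highest of the 10, with group means from 1139 to 3219 normalized counts per kilobase. Atf4 followed, with 913 to 1298, then Asns with 704 to 1030, Xbp1 with 453 to 902 and Herpud1 with 471 to 630. Ddit3 (138 to 257), Sesn2 (89.5 to 133) and Chac1 (47.0 to 107) were lower. Trib3 (3.30 to 12.2) and Atf3 (1.68 to 11.1) were the lowest of the 10. The ranges of Atf4 and Asns overlapped, as did those of Xbp1 and Herpud1, so their order depended on region and age. No library had any of the 10 genes at 0. Trib3 lay between 1.61 and 46.2 normalized counts in every library, and its KI against WT differences had SE of 0.26 to 0.55 on the log2 scale.

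**Figure D1:**
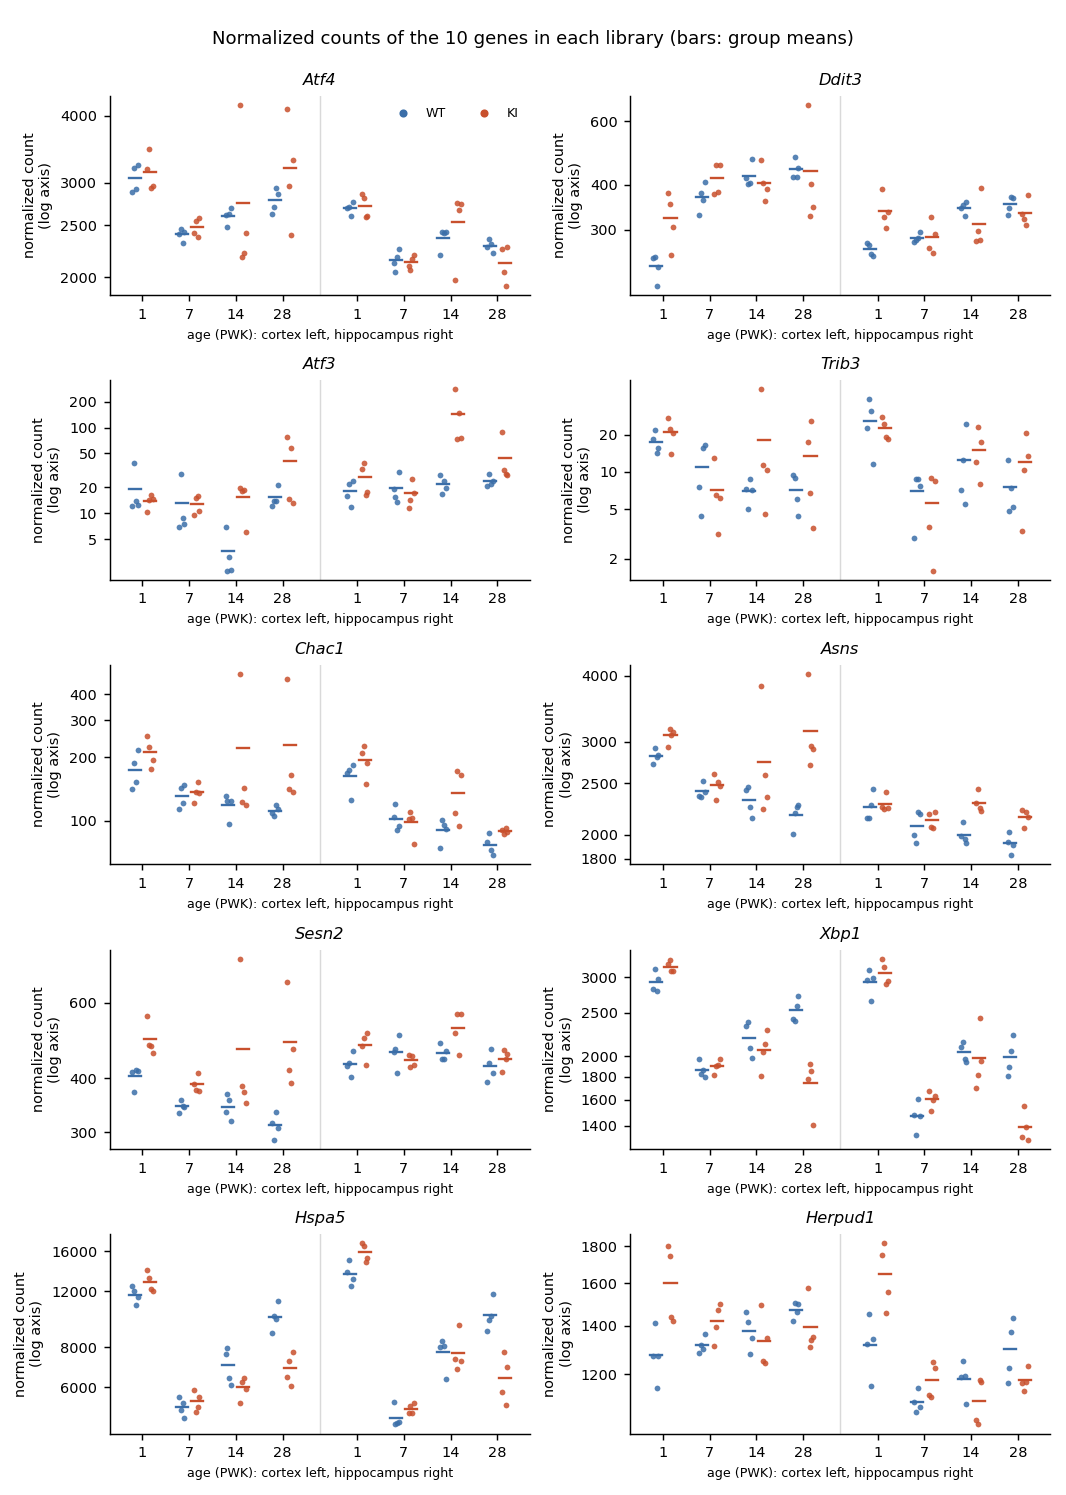
Normalized counts (log axis) of each of the 10 genes against age in postnatal weeks, with cortex on the left and hippocampus on the right of each panel. Points are libraries (4 per group, WT blue, KI orange) and bars are group means. The high KI cortex points of Atf4, Chac1, Asns and Sesn2 at PWK 14 and PWK 28 are both replicate 1.

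The ER genes, and some of the genes downstream of ATF4, moved with age in WT tissue. Hspa5 (chr2:34771970-34777547, + strand), which encodes BiP, had cortical means of 11685 ± 676 in week 1, 5207 ± 336 in week 7, 7035 ± 924 in week 14 and 9988 ± 951 in week 28 (SD, n = 4). In hippocampus the means of the same weeks were 13613 ± 1092, 4818 ± 389, 7714 ± 904 and 10112 ± 1168. The gene was therefore high in the first week, lowest at PWK 7, and higher again at PWK 28, with no overlap of libraries between neighbouring points of that course. The fall from PWK 1 to PWK 7 was 1.17 on the log2 scale in cortex (SE 0.06, adjusted p = 5.47e-09) and 1.5 in hippocampus (SE 0.07, adjusted p = 7.74e-09). The later rise to PWK 28 was 0.94 in cortex (SE 0.07, adjusted p = 4.58e-06) and 1.07 in hippocampus (SE 0.08, adjusted p = 5.47e-05). All adjusted p-values here and in the rest of the text are from limma on log2(normalized count + 1), with Benjamini-Hochberg adjustment over every gene tested, and a gene is called at an adjusted p under 0.05.

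Xbp1 (chr11:5520659-5525893, + strand), the factor activated by IRE1, had the same course, with a fall of 0.65 in cortex and 0.99 in hippocampus to PWK 7 and a rise of 0.44 and 0.43 to PWK 28. In cortex its WT mean went from 2931 ± 152 at PWK 1 to 1865 ± 76.4 at PWK 7 and 2533 ± 154 at PWK 28. Atf4 (chr15:80255184-80257541, + strand) fell to PWK 7 in both regions, by 0.35 in cortex and 0.32 in hippocampus, and rose to PWK 28 in cortex by 0.21. Herpud1 (chr8:94386438-94395377, + strand), an ER membrane protein of ER-associated degradation, fell by 0.26 in hippocampus from PWK 1 to PWK 7 and rose from PWK 7 to PWK 28 by 0.16 in cortex and 0.24 in hippocampus. Chac1, a glutathione-degrading enzyme, fell from PWK 1 to PWK 7 by 0.39 in cortex and 0.66 in hippocampus. The cortical fall (adjusted p = 0.0378) was lost on leaving out PWK 1 replicate 2 or 4 or PWK 7 replicate 1 or 3 (adjusted p up to 0.119) and in 1 fit of all 64 libraries (0.188). Over the same step Trib3 fell in hippocampus by 1.71 (adjusted p = 0.00429), from 25.9 ± 11.6 to 7.05 ± 2.8 normalized counts, the largest fall of the 10. In cortex Asns fell by 0.22 (0.000598) and Sesn2 by 0.24 (0.0127). The Sesn2 call was lost in the fit of all 64 libraries (0.0937). Ddit3 (chr10:127290774-127296288, + strand), the pro-apoptotic factor CHOP, differed from the rest, because it rose in cortex at both steps, by 0.64 to PWK 7 and by 0.26 to PWK 28, and in hippocampus by 0.31 to PWK 28. Ddit3 overlaps Mars on the opposite strand.

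From PWK 1 to PWK 7, 7 of the 10 genes were called in WT cortex (1 higher, 6 lower) and 6 in WT hippocampus (all lower), where 65.3% and 61.3% of all genes were called. The median difference over the 10 was -0.37 in cortex and -0.29 in hippocampus, against 0.01 over all genes in each region. From PWK 7 to PWK 28, 5 genes in cortex and 4 in hippocampus were called, all of them higher, where 22.2% and 14.7% of all genes were called. These comparisons share the PWK 7 libraries, so a low value there enters both. Age went with different mice, so it cannot be told apart from any batch that followed age. The rises of Ddit3 and Herpud1 from PWK 7 to PWK 28 depended on single libraries. In cortex Ddit3 lost its call in 6 of 8 omissions of 1 library, all but PWK 7 replicate 4 and PWK 28 replicate 1 (adjusted p up to 0.108), and Herpud1 in 4, those of PWK 7 replicate 1 or 3 and PWK 28 replicate 2 or 4 (up to 0.062). In hippocampus Herpud1 lost it in 5 of 8, those of PWK 7 replicate 1, 2 or 4 and PWK 28 replicate 3 or 4 (up to 0.101), and Ddit3 in 1, that of PWK 28 replicate 4 (0.055). The fit of all 64 libraries lost the cortical calls of Atf4 (0.192), Ddit3 (0.147) and Herpud1 (0.134) for this step. It also lost the hippocampal call of Ddit3 (0.0977).

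In WT tissue Sesn2 was the gene of the 10 that stood higher in hippocampus at 3 ages, while Asns, Ddit3, Herpud1, Atf4 and Xbp1 stood lower. Sesn2 (chr4:132492032-132510501, - strand), which encodes sestrin 2, an inhibitor of mTORC1 when leucine is short, was higher in hippocampus by 0.42, 0.42 and 0.45 on the log2 scale in weeks 7, 14 and 28. At PWK 28 its 4 hippocampal values were 393 to 468 and its 4 cortical values 288 to 335, with no overlap. Asns (chr6:7675169-7693254, - strand), asparagine synthetase, was lower in hippocampus at all 4 ages, by 0.32, 0.22, 0.22 and 0.18. Ddit3 was lower in hippocampus by 0.37, 0.29 and 0.32 from PWK 7 onward, and Herpud1 by 0.26, 0.22 and 0.18. Herpud1 at PWK 28 (adjusted p = 0.0466) lost its call in 6 of 8 omissions of 1 library, all but hippocampus replicates 3 and 4 (up to 0.132), with total-sum scaling (0.108), with no filter (0.0516) and in the 64-library fit (0.0525), and at PWK 14 with total-sum scaling (0.0638) and without cortex replicate 1 (0.0515). Asns at PWK 28 lost it without cortex replicate 3 or 4 or hippocampus replicate 3 (up to 0.0557) and in the 64-library fit (0.104). Ddit3 at PWK 14 lost it in the same fit (0.0613). Atf4 was lower by 0.19 at PWK 1, 0.16 at PWK 7 and 0.28 at PWK 28. The calls of Atf4 at PWK 1 and PWK 7 were lost with total-sum scaling (0.141 and 0.0596) and in the 64-library fit (0.212 and 0.274). Xbp1 was lower by 0.34 at PWK 7 and by 0.35 at PWK 28 (adjusted p = 0.000617 and 0.0017). Chac1 was lower by 0.54 at PWK 28 (0.00585), and Hspa5 was higher by 0.22 at PWK 1 (0.0165). The calls of Chac1 and Hspa5 were lost in the 64-library fit (0.107 and 0.0815). At PWK 14, Atf3 was 22.1 ± 4.87 in WT hippocampus against 3.61 ± 2.29 in WT cortex (higher by 2.42, adjusted p = 0.000316). The number of the 10 called between regions was 3, 6, 5 and 7 at PWK 1, 7, 14 and 28, beside 34.7%, 40.8%, 34.6% and 37.8% of all genes. The labels do not say whether a replicate number marks the same mouse in both regions, so libraries entered as unpaired, and with the number as a block the counts were again 3, 6, 5 and 7.

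Between KI and WT, limma called none of the 10 at PWK 1 or PWK 7, and at PWK 28 the called genes went in both directions. In both regions the ER genes Hspa5 and Xbp1 were lower in KI, while Asns was higher, and in cortex Sesn2 was higher too. At PWK 14 the leading change was a rise of Atf3 in hippocampus. Atf4 and Ddit3 were called in none of the 8 comparisons of KI with WT. At PWK 1 and PWK 7 called genes were 0.00546% (cortex, week 1), 0.00545% (cortex, week 7), 0.0109% (hippocampus, week 1) and 0.0218% (hippocampus, week 7) of all genes. At PWK 14 the calls were 1 of 10 in cortex and 2 in hippocampus, beside 5.18% and 15.6% of all genes. At PWK 28 they were 4 in cortex and 3 in hippocampus, beside 22.2% and 15.8%.

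**Figure D2:**
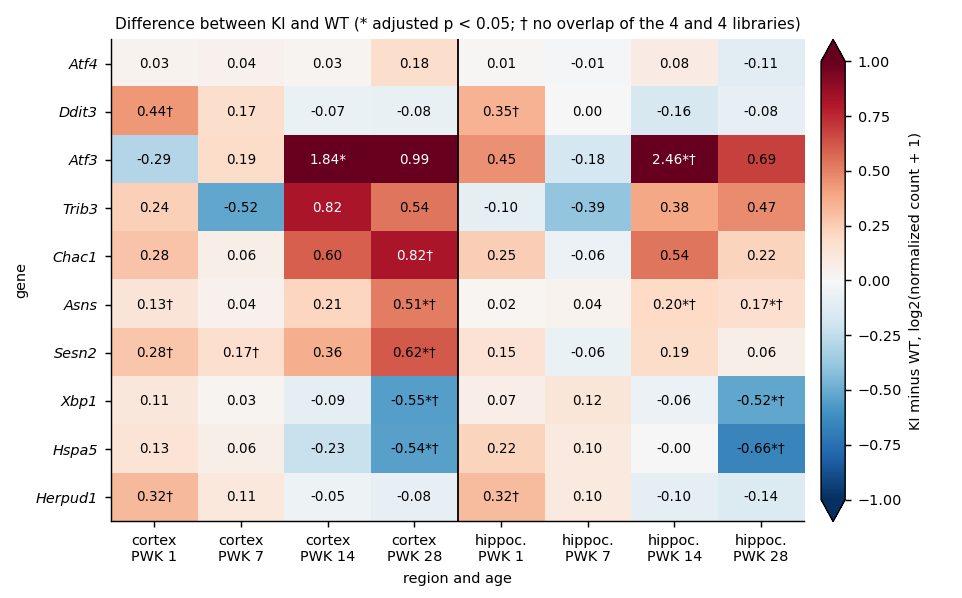
Difference between KI and WT in log2(normalized count + 1) for each gene (vertical) in each region and age (horizontal), with colour from -1 (blue) to 1 (red), darkest beyond these. Asterisks mark an adjusted p under 0.05 and daggers mark groups whose 4 and 4 libraries do not overlap, and at PWK 28 the lower values of Xbp1 and Hspa5 (-0.55 and -0.54 in cortex, -0.52 and -0.66 in hippocampus) stand below the higher values of Asns.

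At PWK 1, 9 of the 10 genes were nominally higher in KI in each region, but limma called none of them. Over all genes, 50.8% in cortex and 50.9% in hippocampus were nominally higher. In cortex 6 of the 10 and in hippocampus 3 had an unadjusted p under 0.05, beside 965 of 18311 and 1003 of 18361 over all genes. The median difference over the 10 was 0.19 in both regions, against 0.00 over all genes. Herpud1 was 1270, 1413, 1148 and 1272 in the 4 WT cortical libraries and 1799, 1743, 1441 and 1421 in the 4 KI libraries. In hippocampus it was 1320, 1451, 1157 and 1343 in WT and 1752, 1816, 1457 and 1558 in KI. In both regions every KI library stood above every WT library, with a difference of 0.32 in each (adjusted p = 0.908 in cortex and 0.808 in hippocampus).

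Ddit3 at PWK 1 was 250.9, 252.3, 209.2 and 235.5 in WT cortex and 379.1, 354, 255 and 306 in KI cortex. In hippocampus it was 275, 272, 256 and 253 in WT and 388, 326, 303 and 335 in KI. The groups did not overlap in either region, and KI exceeded WT by 0.44 in cortex (SE 0.12, adjusted p = 0.908) and by 0.35 in hippocampus (SE 0.09, adjusted p = 0.808). Sesn2 and Asns did not overlap in cortex either, so the libraries separated for 4 of the 10 genes in cortex and 2 in hippocampus, beside 3.15% and 3.26% of all genes. Hspa5 in hippocampus had a mean of 15886 ± 1071 in KI and 13613 ± 1092 in WT (difference 0.22, adjusted p = 0.808). At PWK 1 the choroid plexus sum in hippocampus ranged from 264 to 33607 in KI and from 11082 to 39722 in WT, and its part in these values was not tested.

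At PWK 7 the genotypes lay closer. The median difference was 0.06 in cortex and -0.01 in hippocampus, and 1 gene in cortex and 0 in hippocampus had an unadjusted p under 0.05. Only Sesn2 in cortex separated the libraries, at 331, 356, 345 and 343 in WT and 387, 377, 412 and 374 in KI (difference 0.17, SE 0.07, adjusted p = 0.561), where 4.62% of all genes in cortex and 3.87% in hippocampus did not overlap.

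Of the 3 ER genes, Hspa5 and Xbp1 were lower in KI at PWK 28, and Herpud1 was not called. Hspa5 in cortex was 8902, 10037, 9801 and 11211 in WT and 6457, 7239, 6055 and 7736 in KI. In hippocampus it was 8986, 9714, 10007 and 11740 in WT and 5816, 7711, 5270 and 6942 in KI. Every KI library stood below every WT library in both regions. Hspa5 fell by 0.54 on the log2 scale in cortex (1.46-fold, SE 0.09, adjusted p = 0.0023) and by 0.66 in hippocampus (1.58-fold, SE 0.11, adjusted p = 0.003). The KI means, 6872 ± 757 in cortex and 6435 ± 1100 in hippocampus, lay between the WT means of PWK 7 and PWK 28. The WT libraries of PWK 28 serve both this comparison and that of WT ages.

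Xbp1 at PWK 28 was 2421, 2395, 2589 and 2725 in WT cortex and 1779, 1923, 1855 and 1408 in KI cortex. In hippocampus it was 1805, 1888, 2055 and 2226 in WT and 1321, 1546, 1392 and 1302 in KI. The groups did not overlap in either region. Xbp1 fell by 0.55 in cortex (1.46-fold, SE 0.10, adjusted p = 0.00303) and by 0.52 in hippocampus (1.43-fold, SE 0.08, adjusted p = 0.00133). Leaving out any single library kept both genes called in both regions, with adjusted p up to 0.0127. At PWK 14 neither gene was called. Hspa5 was 7649, 7985, 6428 and 6079 in WT cortex and 5367, 6255, 6410 and 5942 in KI cortex (difference -0.23, SE 0.09, adjusted p = 0.193), so the groups overlapped.

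Herpud1, the third ER gene and the carrier of the related response element, was not called at PWK 28. Its cortical means were 1471 ± 38.5 in WT and 1393 ± 125 in KI (difference -0.08, adjusted p = 0.443), and its hippocampal means were 1300 ± 125 and 1177 ± 39.4 (difference -0.14, adjusted p = 0.21). In cortex 3 of the 4 KI values, 1307, 1339 and 1349, were below every WT value and the fourth, 1578 in replicate 1, was above every WT value.

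The other ER genes were read from a list of 20 chaperones, folding enzymes and degradation factors that does not include the 10. In cortex at PWK 28, 7 of the 20 fell and 1 rose, and in hippocampus 8 fell and 0 rose, beside 10% and 6.91% of all genes lower and 12.2% and 8.92% of all genes higher. The list medians were -0.12 and -0.18, against 0.00 over all genes in each region. The leading falls in cortex were Sdf2l1, a folding component (0.71), Pdia4, a disulfide isomerase (0.58), and Creld2 (0.52). In hippocampus they were Sdf2l1 (0.68), Pdia6, another disulfide isomerase (0.56), and Manf, a secreted ER stress-induced factor (0.53). The single rise in cortex was Hspa13, an ER-associated member of the HSP70 family (0.34, adjusted p = 0.0072). At PWK 14, 2 rose in hippocampus, Hspa13 by 0.31 and the lectin chaperone Canx by 0.21, and limma called none in cortex, where 3 had an unadjusted p under 0.05. At PWK 1 none were called either, and 19 of 20 were nominally higher in KI in each region, beside 50.8% and 50.9% of all genes. The list medians at that age were 0.10 in cortex and 0.11 in hippocampus. An unadjusted p under 0.05 was found for 5 and 9 of the 20, beside 965 and 1003 of all genes.

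Marker genes of several cell types also differed between KI and WT at PWK 28. Hemoglobin and other red cell genes were lower in KI cortex at PWK 28 for 5 of 5 markers, with sums of 3255 to 6609 in KI and 8514 to 9786 in WT. In hippocampus 5 of 5 were nominally lower with an unadjusted p under 0.05 and 2 were called, with sums of 3858 to 7062 in KI and 6713 to 10114 in WT. Astrocyte markers summed to 64891 to 76561 in KI hippocampus and 35646 to 37322 in WT hippocampus, with 2 of 4 called higher, and microglia markers to 8458 to 8890 and 6567 to 7680, with 3 of 5 called higher. Neuron markers summed to 219077 to 232698 in KI cortex and 176541 to 199788 in WT cortex, with 1 of 5 called higher. Neuron markers in hippocampus were mixed, with 2 of 5 called higher and 1 lower (differences -0.20 to 0.40). So were astrocyte markers in cortex, with 1 of 4 called higher and 1 lower (-0.37 to 1.52). Choroid plexus sums overlapped in hippocampus, at 60808 to 104230 in KI and 36915 to 125611 in WT, and limma called 0 of 5, with 0 of 5 at an unadjusted p under 0.05. No marker of these lists was at 0 throughout a group. Hspa5 and Xbp1 in cortex stayed called without the WT library rich in choroid plexus RNA. The part of these cell types in the ER values was not tested.

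Of the genes among the 10 that act downstream of ATF4, Asns was called in 3 of the 8 comparisons of KI with WT, Atf3 in 2 and Sesn2 in 1. The hippocampal calls of Asns were the less stable ones. At PWK 28 it was 2001, 2197, 2251 and 2277 in WT cortex and 4031, 2704, 2938 and 2911 in KI cortex. In hippocampus it was 1938, 2027, 1828 and 1914 in WT and 2223, 2056, 2208 and 2161 in KI. No KI library overlapped a WT library in either region, and 1 KI cortical library stood far above the others. Asns rose by 0.51 in cortex (1.43-fold, SE 0.11, adjusted p = 0.00914) and by 0.17 in hippocampus (1.12-fold, SE 0.05, adjusted p = 0.0429). Without the high cortical library the rise was 0.39 (adjusted p = 0.00426). The small hippocampal rise was lost (adjusted p up to 0.109) on leaving out any 1 library except WT replicate 2 or KI replicate 2, and also with total-sum scaling (0.0951), in 1 fit of all 64 libraries (0.188) and with the replicate number as a block (0.0994).

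At PWK 14 Asns in hippocampus was 1987, 2111, 1958 and 1932 in WT and 2292, 2435, 2242 and 2216 in KI, again with no overlap, and it rose by 0.20 (1.15-fold, SE 0.06, adjusted p = 0.0385). This call was lost (adjusted p up to 0.106) on leaving out any 1 library except KI replicate 1 or 4, and also with total-sum scaling (0.055), in the 64-library fit (0.0661) and with the block (0.08). In cortex the values were 2425, 2463, 2252 and 2150 in WT and 3824, 2232, 2592 and 2356 in KI, which overlapped (difference 0.21, SE 0.14, adjusted p = 0.444).

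Sesn2 at PWK 28 was 315, 288, 335 and 307 in WT cortex and 670, 419, 391 and 469 in KI cortex. The groups did not overlap, and Sesn2 rose by 0.62 (1.53-fold, SE 0.15, adjusted p = 0.0172). Without KI replicate 1 the rise was 0.45 (adjusted p = 0.016), and over all single omissions the adjusted p stayed between 0.0124 and 0.0497. In hippocampus its means were 445 ± 22.2 in KI and 426 ± 32.3 in WT (difference 0.06, adjusted p = 0.65).

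Chac1 (chr2:119351229-119354381, + strand) at PWK 28 was 109, 105, 119 and 114 in WT cortex and 473, 142, 165 and 137 in KI cortex. All 4 KI values were above all 4 WT values, but the spread within KI was wide and the difference of 0.82 (SE 0.34) was not called (adjusted p = 0.107). Without KI replicate 1 the difference was 0.40 (adjusted p = 0.0753). In hippocampus its means at PWK 28 were 89.4 ± 2.33 in KI and 76.9 ± 8.33 in WT (difference 0.22, adjusted p = 0.31), and at PWK 14 they were 135 ± 39.0 and 90.4 ± 11.3 (difference 0.54, adjusted p = 0.13). Trib3 (chr2:152337422-152344032, - strand), a pseudokinase that binds ATF4, had PWK 28 means of 13.4 ± 10.2 in KI cortex and 7.21 ± 2.37 in WT cortex. Its 4 WT hippocampal values were 4.86 to 12.5 and its 4 KI values 3.33 to 20.5, which overlapped, and it was not called in any comparison of KI with WT.

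Atf4 itself differed little at PWK 28. It was 2625, 2703, 2936 and 2853 in WT cortex and 4123, 2963, 2398 and 3301 in KI cortex, with overlapping groups (difference 0.18, SE 0.13, adjusted p = 0.379). In hippocampus the means were 2123 ± 167 in KI and 2291 ± 58.8 in WT (difference -0.11, adjusted p = 0.23). At PWK 14 in hippocampus KI replicate 1, at 1974, was below every other library, and without it the 3 other KI libraries (2745, 2667 and 2733) differed from WT by 0.20 (adjusted p = 0.0416). Ddit3 at PWK 28 was 421, 479, 420 and 444 in WT cortex and 667, 328, 402 and 347 in KI cortex, where 1 KI library was above and 3 were below all WT libraries (difference -0.08, adjusted p = 0.813).

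Over the 10 genes at PWK 28, 2 rose and 2 fell in cortex and 1 rose and 2 fell in hippocampus. The libraries did not overlap for 5 of the 10 in cortex and 3 in hippocampus, beside 25.8% and 21.5% of all genes. The median difference was 0.34 in cortex and -0.01 in hippocampus, against 0.00 over all genes in each.

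The high KI cortical values came from 2 libraries, replicate 1 at PWK 14 and replicate 1 at PWK 28, which are different mice. At PWK 14 that library held 4192 normalized counts of Atf4 against 2182 to 2419 in the other KI libraries, 499 of Chac1 against 119 to 143, 760 of Sesn2 against 351 to 384, and 46.2 of Trib3 against 4.62 to 11.4. It was the highest of the 4 KI libraries for 8 of the 10 genes, all but Xbp1 and Hspa5, for which it was the lowest. At PWK 28 replicate 1 was the highest of the 4 for 7 of the 10, all but Xbp1, Hspa5 and Trib3. Relative to the median of the other KI libraries, it held 3.32 times as much Chac1, 1.93 times as much Ddit3, 1.60 times as much Sesn2 and 1.38 times as much Asns. Without replicate 1, the KI mean of Sesn2 at PWK 14 was 369 ± 16.6 (n = 3) against 344 ± 22.1 in WT (n = 4), and its difference went from 0.36 to 0.10.

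The same 2 libraries were the highest of their groups in a list of 9 immediate early genes, which neurons transcribe within minutes of strong activity (Fos, Fosb, Junb, Egr1, Egr2, Arc, Npas4, Nr4a1 and Ier2). At PWK 14 the sum of these genes was 53298 in KI cortical replicate 1 and 6997, 12738 and 14923 in the other KI libraries, against 15297 to 22456 in WT. At PWK 28 it was 53352 in replicate 1 and 7708, 34587 and 4045 in the others, against 28998 to 33074 in WT. Both high libraries, and replicate 3 at PWK 28, exceeded every WT library of their age. The remaining KI libraries were below every WT library of their age, so the KI groups were wider than WT on both sides. No immediate early gene was called between KI and WT by limma in any of the 8 comparisons, where 0 to 4 of the 9 had an unadjusted p under 0.05, with a median difference in cortex of -0.17 at the earlier and -0.89 at the later of these ages. In hippocampus KI replicate 1 had the highest sum of its group, 32350 at PWK 14 and 34264 at PWK 28. At PWK 14 it held 109 of Chac1 (others 94.7 to 172), 511 of Sesn2 (454 to 566) and 2292 of Asns (2216 to 2435). At PWK 28 its Sesn2, 414, was the lowest (others 444 to 466). Its Chac1 was 90.5 (others 86.7 to 92.0) and its Asns, 2223, was the highest. The part of neuronal activity in the values of the 10 genes was not tested.

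**Figure D3:**
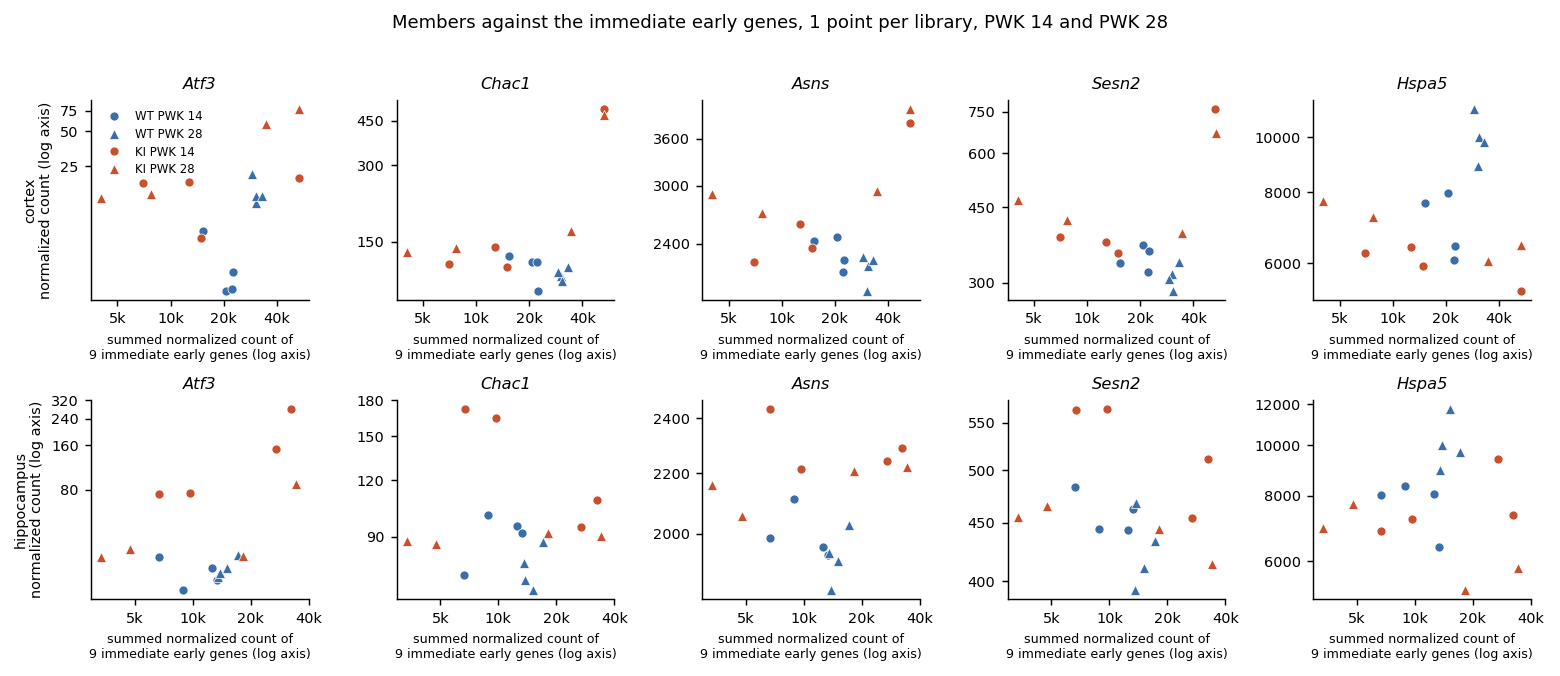
Normalized counts of 5 of the 10 genes (vertical, log axis) against the summed normalized counts of 9 immediate early genes (horizontal, log axis), 1 point per library at PWK 14 (circles) and PWK 28 (triangles), WT blue and KI orange, cortex above and hippocampus below. The cortical KI libraries at 53298 and 53352 on the horizontal axis hold the highest Chac1, Asns and Sesn2 of their groups. In hippocampus the KI library with the highest sum of its group holds neither the highest Chac1 nor the highest Sesn2.

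Within the KI groups of PWK 28, Hspa5 was lower in the libraries with the higher immediate early sums. In cortex it was 6055 in replicate 3 and 6457 in replicate 1, where the sums were 34587 and 53352, and 7239 and 7736 in replicates 2 and 4, where they were 7708 and 4045. In hippocampus Hspa5 was 5270 in replicate 3 and 5816 in replicate 1, where the sums were 18107 and 34264, and 7711 and 6942 in replicates 2 and 4, where they were 4744 and 3338. At PWK 14 KI replicate 1 had the highest sum of its group in each region. Its Hspa5 was the lowest in cortex (5367, others 5942 to 6410) but not in hippocampus (7338, others 6858 to 9399). With 4 libraries in a group, this is a description of these libraries and no test was made. All 8 KI values of PWK 28 were below every WT value of that age in their region.

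Atf3 (chr1:191170296-191218039, - strand), a factor induced by many kinds of stress and injury, had the largest fold difference of the 10. In hippocampus at PWK 14 it was 28.1, 16.9, 23.8 and 19.9 in WT and 279, 74.4, 150 and 75.9 in KI. Every KI library stood above every WT library, and replicates 1 and 3 stood above the other KI libraries. Atf3 rose by 2.46 on the log2(value + 1) scale (5.49-fold, SE 0.41, adjusted p = 0.00495), and it stayed called on leaving out any 1 library (2.07 to 2.70, adjusted p up to 0.0215). The highest value came from replicate 1, which also had the highest sums of astrocyte markers (183682 against 68406 to 78042 in the other KI and 34836 to 38810 in WT libraries), of microglia markers (13565 against 6019 to 8201 and 5723 to 7248) and of immediate early genes (32350 against 6700 to 26931 and 6657 to 13329). Between KI and WT, 2 of 4 astrocyte markers were called higher (differences -0.15 to 2.75) and 0 of 5 microglia markers (-0.13 to 0.86). The part of these markers and of the immediate early genes in the rise of Atf3 was not tested.

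In cortex at PWK 14 Atf3 was 6.97, 2.14, 3.12 and 2.20 in WT and 19.7, 18.0, 18.4 and 6.09 in KI. The lowest KI value was under the highest WT value, so the groups overlapped. Atf3 rose by 1.84 (SE 0.46, adjusted p = 0.0452), and leaving out any 1 library except KI replicate 4 took the adjusted p over 0.05 (up to 0.121). At PWK 28 Atf3 was 77.1, 14.5, 58.1 and 13.2 in KI cortex and 12.0 to 21.6 in WT, and 87.6, 31.9, 28.8 and 28.3 in KI hippocampus and 20.7 to 29 in WT. The differences of 0.99 (adjusted p = 0.216) and 0.69 (adjusted p = 0.204) were not called. The 2 high cortical KI values were in the same libraries, replicates 1 and 3, as the 2 high immediate early sums.

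At PWK 14 the 10 genes had 1 rise in cortex and 2 in hippocampus and no fall. Over all genes, 2.48% were called higher and 2.70% lower in cortex, and 7.64% higher and 7.95% lower in hippocampus. Libraries did not overlap for 0 of the 10 in cortex and 2 in hippocampus, beside 14.2% and 23.8% of all genes. The median difference over the 10 was 0.12 in cortex and 0.14 in hippocampus.

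Other genes of the ATF4 program were read from a list of 25 targets, 23 of them in the table. In cortex at PWK 28, 7 rose and 3 fell, beside 12.2% of all genes higher and 10% lower, with a median of 0.19. The leading rises were Stc2, a secreted glycoprotein (1.76, 111 ± 52.3 in KI against 29.9 ± 6.37 in WT), Aldh1l2, a mitochondrial one-carbon enzyme (0.77), and Nupr1, a stress-induced nuclear protein (0.74), and the falls were Pck2, mitochondrial PEPCK (0.56), Ddit4, an inhibitor of mTORC1 (0.55), and Phgdh, which starts serine synthesis (0.51). In hippocampus at PWK 28, 2 rose, Aldh1l2 by 1.08 and Psat1, a serine synthesis enzyme, by 0.19, and 2 fell, Stc2 by 0.87 and Pck2 by 0.63, beside 8.92% of all genes higher and 6.91% lower, with a median of 0.01. At PWK 14 in hippocampus, 3 rose, Aldh1l2 by 1.66 and the amino acid transporters Slc7a5 by 0.57 and Slc7a1 by 0.43, and Pck2 fell by 0.98, beside 7.64% of all genes higher and 7.95% lower. In cortex at PWK 14 limma called none of the 23, and 4 had an unadjusted p under 0.05.

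Stc2 moved in opposite directions in the 2 regions. It was 95.0 ± 9.55 in KI and 174 ± 13.1 in WT hippocampus at PWK 28, and the difference between the regions in the KI effect was itself called (-2.63 on the log2 scale, adjusted p = 0.000532). Of the 7 eIF2 alpha kinases and ER stress sensors, Eif2ak3 (PERK, 0.41), Eif2ak4 (GCN2, 0.27) and Atf6 (0.24) rose and Atf6b, a paralog of Atf6, fell by 0.27 in cortex at PWK 28, where 22.2% of all genes were called. In hippocampus Atf6 rose by 0.43 and Atf6b fell by 0.64 at PWK 14, and Atf6b fell by 0.42 at PWK 28, where 15.6% and 15.8% of all genes were called. The fall of Atf6b at PWK 14 was larger in hippocampus than in cortex (-0.45, adjusted p = 0.0121). Of 8 genes of eIF2 alpha and its regulators, Eif2s1, which encodes eIF2 alpha (0.38), and Eif2b5 (0.31), a subunit of its exchange factor, rose in cortex at PWK 28 (2 of 8, beside the same 22.2%), and limma called none elsewhere, with 0 or 1 at an unadjusted p under 0.05 in each of the other 7 comparisons.

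**Figure D4:**
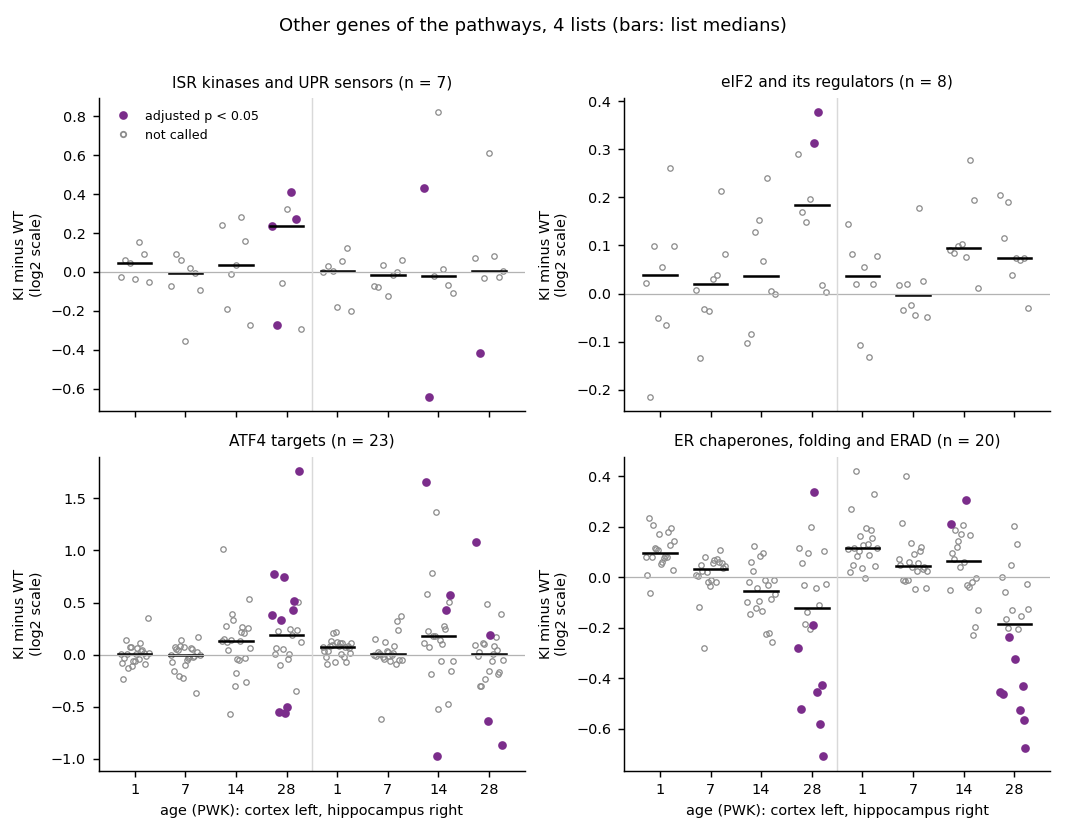
Difference between KI and WT on the log2 scale (vertical) for each gene of 4 pathway lists of genes other than the 10, by age in postnatal weeks with cortex on the left and hippocampus on the right of each panel. Filled points have an adjusted p under 0.05, open points do not, and bars are list medians. The median of the ER chaperone list goes from 0.10 at PWK 1 to -0.12 at PWK 28 in cortex.

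Whether the KI effect differed between ages or regions was tested directly. Between PWK 14 and PWK 28 limma called 0 of 18398 genes in cortex (0% of all genes, 2770 at an unadjusted p under 0.05) and 0 of 18411 in hippocampus (0% of all genes, 2274 at an unadjusted p under 0.05), and so none of the 10. The Hspa5 effect at PWK 28 differed from that at PWK 14 by -0.66 in hippocampus (SE 0.18, adjusted p = 0.175), and the Xbp1 effect by -0.46 in each region (adjusted p = 0.141 in cortex and 0.194 in hippocampus). Between regions, 2.85% of genes were called at PWK 14 and 4.57% at PWK 28, with none of the 10 among them (0 and 2 of the 10 at an unadjusted p under 0.05). With the replicate number within each genotype as a block, none of the 10 was called at either age. At PWK 28 the Sesn2 effect in hippocampus minus that in cortex was -0.55 (SE 0.18, adjusted p = 0.091), and the same difference for Asns was -0.35 (SE 0.13, adjusted p = 0.144). In the main analysis a larger effect in cortex is therefore not shown for either gene, nor is a later onset for Hspa5 or Xbp1. These results depended on the fit and on single libraries. Without KI cortex PWK 14 replicate 1, limma called 503 genes between ages in cortex, with Xbp1 among them (adjusted p = 0.0448). The 64-library fit called Xbp1 in both regions (0.0176 in hippocampus) and Hspa5 in hippocampus (0.00489). Between regions, Asns (0.0461) and Sesn2 were called without KI cortex PWK 28 replicate 2.

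Likeness was read over the 16 group means of log2(value + 1), as a description. The genes most like Hspa5 were Calr (Pearson r = 0.983) and Hsp90b1 (0.979), a lectin chaperone and an ER chaperone. Those most like Xbp1 were Crip3 (0.946) and Sdf2l1 (0.942). Those most like Asns were Atp6v0d1 (0.964) and Zyx (0.947), those most like Atf3 were Rab32 (0.915) and Twf1 (0.904), and those most like Sesn2 were Tango6 (0.909) and Krt90 (0.888). Among the 10, Chac1 and Asns had the second highest likeness over the group means (0.859) after Xbp1 and Hspa5 (0.876), while Sesn2 was unlike both (0.225 with Chac1 and 0.147 with Asns). Over deviations of the 64 libraries from their own group means, Chac1 and Sesn2 were the most alike (0.812), a value over libraries that include the 2 high cortical KI libraries.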

How the data were processed

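RNA-seq of frontal cortex and hippocampus was analysed from 1 deposited table of 18432 genes and 64 libraries. Its values are a normalized signal per gene: the authors estimated transcript counts with Salmon against GRCm38, summed them to genes and divided them in DESeq2 by library size and transcript length factors before the table was deposited. The submitters' processing notes name Salmon 0.11.2, DESeq2 1.19.11 and R 3.6.0, while the study's methods name other versions and another library kit. The values are not whole reads (24.0% to 52.1% of low values per library lay within 0.1 of a whole read), so no count test was possible and depth, with the precision it gives, is unknown.

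Groups were taken from the sample labels, and every column matched 1 sample (0 unmatched). Differences were tested with limma 3.58.1 in R 4.3.3 (trended prior) on log2(value + 1), for genes with a mean of at least 1 in the libraries compared, with Benjamini-Hochberg adjustment over all genes tested and a threshold of 0.05. Folds refer to value + 1 and are therefore too small for genes with low values. Contrasts were KI against WT per region and age, WT ages, WT regions, and differences of the KI effect between ages or regions. The code was tested on simulated data. Summaries used Python 3.11.15, numpy 2.4.6 and pandas 2.3.3. IDs were named from GENCODE vM21 (18420 matched).

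The 10 genes and the pathway and marker lists were chosen with earlier results of these data known. Besides the 10, up to 3 called genes per list and direction in each KI against WT comparison are named, by size of change, and the 2 genes most like each of the 10 that was called. Alternatives were a pseudocount of 5, a minimum mean of 50 or none, total-sum scaling, 1 fit of all 64 libraries, sample quality weights, the replicate number as a block, and leaving out each library. Libraries were treated as unpaired, because the labels do not say what a replicate number shares between groups or regions.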

Additional observations from a re-analysis of the deposited data

Results flagged for a closer look

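In 17 of 160 groups of 4 libraries (10.6%), 1 library of 1 of the 10 genes stood apart from the other 3 by Dixon's 95% criterion. It did so 12 times as the highest and 5 times as the lowest. Independent, normally distributed values would give about 1 in 20. The 10 genes were measured in the same libraries and the values were not logged, so the share cannot be held against that rate. KI cortex replicate 1 at PWK 14 stood apart as the highest for 4 genes. It held 4192 normalized counts of Atf4 (others 2182 to 2419), 46.2 of Trib3 (others 4.62 to 11.4), 499 of Chac1 (others 119 to 143) and 760 of Sesn2 (others 351 to 384). KI cortex replicate 1 at PWK 28, another mouse, stood apart with 473 of Chac1 (others 137 to 165) and 1578 of Herpud1 (others 1307 to 1349). Both had the highest immediate early sum of their group, and its part in these values was not tested.

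Atf3 stood apart in 4 groups, with 38.3 in WT cortex PWK 1 replicate 2 (others 12.2 to 13.9), 28.9 in WT cortex PWK 7 replicate 2 (others 6.86 to 8.84), 6.09 as the lowest in KI cortex PWK 14 replicate 4 (others 18.0 to 19.7) and 87.6 in KI hippocampus PWK 28 replicate 1 (others 28.3 to 31.9). In hippocampus at PWK 14, Atf4 was lowest in replicate 1 of both genotypes, at 2197 in WT (others 2420 to 2432) and 1974 in KI (others 2667 to 2745), and Ddit3 was highest in KI replicate 4 at 390 (others 279 to 297). Hspa5 was 5401 in WT hippocampus PWK 7 replicate 1 (others 4590 to 4659) and 6374 as the lowest in WT hippocampus PWK 14 replicate 4 (others 8045 to 8356). Asns was 2405 in KI hippocampus PWK 1 replicate 3 (others 2239 to 2259), and Sesn2 was 372 as the lowest in WT cortex PWK 1 replicate 2 (others 414 to 419).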

How the results depend on the processing

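Alternatives were compared for 71 differences of single genes, those called in the main analysis or under some alternative, and none of the 71 reversed. Among the counts of called genes, that of KI against WT in cortex at PWK 14 was 0 instead of 1 with a minimum mean of 50. That filter removed Atf3 (means of 15.6 in KI and 3.61 in WT) before testing. The count went from 1 to 0 with no filter and with sample quality weights. It went to 2 in 1 fit of all 64 libraries, and ranged from 0 to 1 with 1 library left out. In hippocampus at PWK 14 it went from 2 to 1 with total-sum scaling, in the 64-library fit and with the replicate block, and ranged from 1 to 3 with 1 library left out. From PWK 7 to PWK 28 the count in WT cortex went from 5 to 2 in the 64-library fit and to 3 with the replicate block (3 to 5 with 1 library left out), and in WT hippocampus from 4 to between 2 and 4 with 1 library left out. Between WT regions the 64-library fit gave 1 instead of 3 at PWK 1 and 4 instead of 7 at PWK 28. For the change of the KI effect from PWK 14 to PWK 28, 0 became 1 in cortex in the 64-library fit and with sample quality weights (0 to 1 with 1 library left out) and 2 in hippocampus in the 64-library fit. For its difference between regions at PWK 28, 0 became 1 in the 64-library fit and 0 to 2 with 1 library left out, 2 of them without KI cortex replicate 2. The replicate block moved no other count past 1.5 times, and the single calls lost with it were Asns in KI against WT hippocampus at PWK 14 and PWK 28 and Ddit3 and Herpud1 in WT cortex from PWK 7 to PWK 28. Over 12819 genes, deviations of same-numbered KI and WT libraries correlated above 0.1 in 10 of 32 pairs. Those of same-numbered cortex and hippocampus libraries did so in 17 of 32 pairs (mean r 0.14, against -0.0461 for other numbers), and 38 of 64 libraries were closest to their own number in the other region, a hint from the data that numbers may mark mice across regions. The cause of these changes was not tested. Of the values of single genes, 995 kept their side of the threshold, 77 lost a call and 27 gained one. The unknown depth limits Trib3 and Atf3 most, the genes with the lowest values.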
